A study of Mus musculus with 165 samples.

Results

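The comparison described here is that of GCSF-OHT 2h with GCSF-OHT 1h, the second hour after 4-hydroxy-tamoxifen (OHT) was added to PUER cells in neutrophil conditions. It was made by taking the libraries whose labels give the GCSF condition and 1h or 2h, 3 libraries at each time point. These are 2 of the 56 groups of condition and time point in the series, of which 53 hold 3 libraries and 3 hold 2. PUER cells, a line of blood progenitors that grow in IL3, have a disrupted *Spi1* and make PU.1 only as a hybrid with the hormone-binding part of the estrogen receptor, which OHT switches on. The labels give bone marrow of the PU.1-/- mouse as their origin, and another passage of the study gives fetal liver. All groups used here share this deletion and this transgene and come from the same line. GCSF-OHT cells had spent 48 h with GCSF (10 ng/mL) in place of IL3 before 100 nM OHT was added, and GCSF 0h cells were taken after this pre-treatment and, by their treatment label and the study's methods, before OHT, although their titles name OHT. Every 0h value given here rests on this reading. IL3-OHT cells were kept in IL3 (5 ng/mL) and received 200 nM OHT, so that cytokine, pre-treatment and OHT dose cannot be told apart between the conditions. Each time point had its own culture plate and no cells without OHT were sampled at 1h or 2h, so that the effects of OHT, of handling and of the plate cannot be told apart in the comparison of the 2 time points. The study's methods call the replicates biological, without saying whether they came from separate cultures. Unless another setting is named, p-values measure the spread between libraries of the same group. This spread was pooled over all groups in the fit, not only over those compared.

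The first hours after a stimulus are known for immediate-early genes, which need no new protein to be transcribed. Among them are the AP-1 and EGR transcription factors and the inhibitors that switch the stimulus off again, such as the dual-specificity phosphatases (DUSPs) of the MAP kinases, and their mRNAs are short-lived. PU.1, an ETS factor encoded by *Spi1*, activates receptor genes by which myeloid cells sense cytokines, chemokines and antibodies. GCSF acts through its receptor and STAT3, and IL3 through the common beta chains and STAT5.

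The 6 libraries held 19839205 to 25816977 reads on genes (median 22495464.5). Values are normalized counts, that is reads divided by the size factor of the library, and 3 reads, taken as the floor, correspond to 2.36 to 3.12 normalized counts, which covers counting error only. Of 8 genes known from the neutrophil lineage (*Mpo*, *Elane*, *Prtn3*, *Ctsg*, *Csf3r*, *Cebpe*, *Gfi1* and *Ms4a3*), all were well above the floor at both time points. *Elane* was at 122160 normalized counts at 1h and 112206 at 2h, and none of the 8 was called. Reads assigned to *Spi1* may stem from the fusion or from the disrupted gene. *Spi1* had 12338, 12164 and 12206 normalized counts at 1h and 12586, 13387 and 12948 at 2h. The 2h libraries all lay above the 1h libraries by a small amount (log2 fold change 0.08, standard error 0.048, adjusted p = 0.213), and the gene was not called.

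Of 17414 genes tested, 503 were called higher at 2h (2.89%) and 400 lower (2.3%), 5.19% in all. The counts given below for gene lists are to be read beside these shares. A gene was called at an adjusted p under 0.05 (limma, Benjamini-Hochberg over all genes tested) and an absolute log2 fold change over 0.58, with fold changes on the scale of log2(normalized count + 1), which understates the changes of genes with few reads. The median log2 fold change of all genes tested was -0.03. At a mean of at least 100 normalized counts in the higher group, 356 genes were called higher and 218 lower, and the largest rise with a gene symbol was 1.81 and the largest fall -3.02. The 3 libraries of one time point lay apart from the 3 of the other in 837 of the 903 called genes, against 38.7% of all genes tested.

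**Figure D1:**
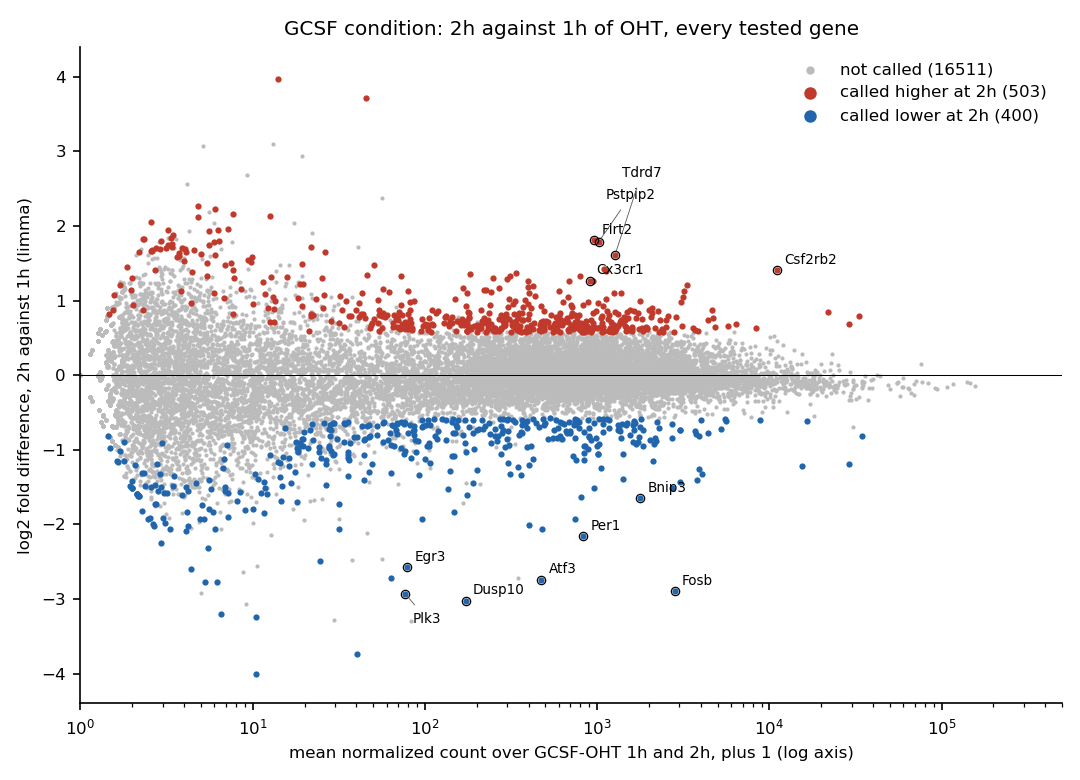
Each point is 1 of 17414 genes, with the mean normalized count over GCSF-OHT 1h and 2h plus 1 on the horizontal log axis and the log2 fold difference of 2h against 1h on the vertical axis. The 503 genes called higher are red, the 400 called lower blue, ringed points are labelled, and among the labelled genes the falls of *Dusp10*, *Plk3*, *Fosb* and *Atf3* lie further from 0 than the rises of *Flrt2* and *Pstpip2*.

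Immediate-early genes were among the steepest falls. Of the 13 AP-1 and ATF genes tested, 8 were called lower and 0 higher, with a median log2 fold change of -1.13. *Fosb* (ENSMUSG00000003545, chromosome 7 from 19302696 to 19310118 of GRCm38), the AP-1 subunit FosB, had 4402, 5434 and 5124 normalized counts at 1h and 625, 733 and 643 at 2h (log2 fold change -2.90, standard error 0.18, adjusted p = 6.62e-28). All 3 libraries at 2h held less than any at 1h, but they still stood far above the 41.6, 33.6 and 39.1 counts of the GCSF 0h libraries. *Atf3*, a stress-induced ATF factor, had 762, 856 and 849.5 counts at 1h and 115.4, 153.4 and 102.9 at 2h (log2 fold change -2.74, standard error 0.15, adjusted p = 5.72e-32). *Maff*, a small Maf protein that pairs with bZIP factors, fell from 255, 247 and 284 to 88.1, 94.4 and 74.6 counts (log2 fold change -1.60, standard error 0.18, adjusted p = 9.26e-13). In each of these 3 genes the time points did not overlap. Smaller fold changes were measured for other subunits, *Jun* falling from 4969.8, 5744 and 5726 to 2384, 2329 and 2158 (log2 fold change -1.26) and *Fos* falling from 1039, 1179 and 1239 to 527, 547 and 499 (-1.13). *Jund*, the AP-1 gene with the most reads, had 19634, 21809 and 23234 counts at 1h and 9577, 9690.4 and 8607 at 2h (-1.21). The other called members were *Fosl1* (-0.84) and *Mafk* (-0.60, and -0.56, not called, without replicate 2 at 1h). Summed over the list, AP-1 and ATF genes held 50003 to 55305 counts in the 1h libraries and 27597 to 29482 in the 2h libraries.

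EGR factors, zinc finger proteins that act downstream of ERK, fell as well: *Egr1*, *Egr2* and *Egr3* were called lower out of 6 EGR factors and NAB corepressors tested, and 0 were called higher. *Egr1* had 697, 822 and 795 normalized counts at 1h and 185.3, 204.6 and 162.9 at 2h (log2 fold change -2.06, standard error 0.18, adjusted p = 8.33e-19). Its GCSF 0h libraries held 335, 253 and 206.9, so that the 2h values were already below all of them. *Egr3* went from 117.5, 135.3 and 143.8 to 29.4, 30.7 and 10.5 counts (log2 fold change -2.57, standard error 0.57, adjusted p = 0.000184), and replicate 3 at 2h was the lowest of the 6 libraries. *Egr2* (-1.35) held 50.8 counts on average at 1h and 18.9 at 2h.

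Several inhibitors of MAP kinase signalling fell. Of 17 genes tested in the list of ERK feedback inhibitors, which also holds phosphatases that act mainly on p38 and JNK, 9 were called lower and 0 higher (median log2 fold change -0.88). *Dusp10* (ENSMUSG00000039384, chromosome 1 from 184034381 to 184075636), a phosphatase of p38 and JNK, had the lowest fold change of all named genes, with 281, 307 and 331 normalized counts at 1h and 41.5, 37.8 and 31.6 at 2h (log2 fold change -3.02, standard error 0.23, adjusted p = 8.09e-22). The 2h values lay in the range of the GCSF 0h libraries, which held 47.1, 31.9 and 23.3. *Dusp16*, another phosphatase of JNK, fell from 696, 613 and 615 to 157.97, 161.3 and 157.2 counts (log2 fold change -2.005, standard error 0.13, adjusted p = 7.04e-27). *Dusp1*, which removes the activating phosphates of p38, JNK and ERK, fell from 1019.7, 1229.8 and 1264 to 292, 307 and 323 counts (log2 fold change -1.92, standard error 0.14, adjusted p = 2.86e-24). Each of these 3 phosphatase genes had every 1h library above every 2h library. The ERK-specific *Dusp6*, the gene of the list with the most reads among those called, had 5067, 5611 and 5837 counts at 1h and 2080, 2123 and 2023 at 2h (log2 fold change -1.40). *Dusp8* (-2.06), *Dusp4* (-1.45) and *Dusp5* (-0.84) were called lower too, as were *Spry2* (-0.95) and *Spry1* (-0.83), which act on the Ras pathway upstream of ERK. *Dusp5* still held 1263 counts at 2h against 251 at 0h.

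The windows before the starts of 3 of the falling genes are shown, *Dusp10* as the steepest fall of the named genes and *Dusp1* and *Maff*, chosen after their values were seen, because they hold a cAMP response element (TGACGTCA), the palindrome bound by CREB and ATF factors. They are the 250 bases before the start annotated by RefSeq (GRCm38.p6), which can differ from the gene start given with the coordinates, read 5′ to 3′ on the strand of the gene, with motif matches in capitals.

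Dusp10 (chr1:184034131-184034380, plus strand): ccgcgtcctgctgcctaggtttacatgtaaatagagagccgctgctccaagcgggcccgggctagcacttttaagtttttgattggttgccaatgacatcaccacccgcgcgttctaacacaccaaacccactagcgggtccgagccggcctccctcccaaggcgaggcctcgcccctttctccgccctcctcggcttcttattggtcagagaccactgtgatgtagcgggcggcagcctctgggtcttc

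Dusp1 (chr17:26508473-26508722, minus strand): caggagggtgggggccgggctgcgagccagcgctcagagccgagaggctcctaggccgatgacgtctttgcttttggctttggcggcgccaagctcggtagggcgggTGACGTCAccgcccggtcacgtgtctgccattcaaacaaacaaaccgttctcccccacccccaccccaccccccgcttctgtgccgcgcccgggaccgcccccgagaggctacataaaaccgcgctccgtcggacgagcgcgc

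Maff (chr15:79347270-79347519, plus strand): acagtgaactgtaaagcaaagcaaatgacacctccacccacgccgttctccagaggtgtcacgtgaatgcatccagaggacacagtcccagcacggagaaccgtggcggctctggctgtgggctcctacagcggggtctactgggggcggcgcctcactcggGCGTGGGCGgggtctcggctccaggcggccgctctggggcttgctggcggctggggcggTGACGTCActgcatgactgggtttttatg

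The element lies 143 to 136 bases before the start in *Dusp1* and 29 to 22 bases before it in the *Maff* window shown, 1 of 3 in the RefSeq table, which also holds an EGR site (GCGTGGGCG) from 88 to 80 bases before the start. *Dusp10* has none of the motifs searched. Both strands were searched in windows of 300 bases, the 250 shown and 50 after the start, for the cAMP response element (in 1.79% of 32851 windows), the AP-1 site TGANTCA (7.81%), the EGR site (0.612%), the PU.1 site GAGGAAGT (3.2%) and the CArG box of SRF (1.63%). These motifs do not overlap in the windows shown. Of the 30 genes with the largest changes, 26 had a window. The cAMP response element was found in *Dusp1*, *Maff* and the rising *S1pr2*, and the AP-1 site in *Hilpda*, which fell, and in *Fgd4*, *Sipa1l2* and *Slc37a2*, which rose. The EGR site was found in *Maff* and *Sipa1l2*, and the CArG box in 0 of the 26. A match describes the letters only.

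Among 25 other immediate-early genes, 11 were called lower and 1 higher (median -0.63). *Plk3*, a Polo-like kinase of the stress response, had the steepest fall, from 100.01, 145.7 and 155.3 normalized counts at 1h to 16.2, 27.5 and 9.72 at 2h (log2 fold change -2.93, standard error 0.26, adjusted p = 2.23e-18). *Trib1*, a pseudokinase that directs C/EBP factors to degradation, fell from 4019, 4640.4 and 4498 to 1585, 1791 and 1505 counts (log2 fold change -1.43). *Btg1*, an antiproliferative gene, fell from 5437, 5641 and 6229 to 2294, 2309 and 2297 (-1.32). *Srf* (-0.84), the factor that itself drives many immediate-early genes, was called lower, as were the kinase gene *Sgk1* (-0.93), *Zfp36* (-0.78), whose product destabilizes AU-rich mRNAs, and *Phlda1* (-1.25), *Csrnp1* (-0.86), *Ier5* (-0.87) and *Ier3* (-0.81). The nuclear receptor gene *Nr4a1*, the remaining call, had 19.6, 35.4 and 41.1 counts at 1h and 17.2, 16.5 and 10.5 at 2h (log2 fold change -1.03, standard error 0.35, adjusted p = 0.0187), and the call was lost without replicate 2 at 1h (adjusted p = 0.0802), replicate 3 at 1h (0.125) or replicate 3 at 2h (0.137). *Ier5l* was the member called higher, with 261, 307 and 253 counts at 1h and 438, 485 and 446 at 2h (0.74).

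Inflammatory mediators went down with them in part: 6 of 22 chemokine and cytokine genes tested were called lower and 1 higher (median -0.41). The chemokine gene *Ccl3* had 1327, 1467 and 1551 normalized counts at 1h and 905, 901 and 842 at 2h (log2 fold change -0.71, standard error 0.093, adjusted p = 2.93e-10), and the related *Ccl4* had 398, 344 and 407 and 182.3, 236 and 175.03 (log2 fold change -0.96, standard error 0.14, adjusted p = 6.56e-09). In both, all 2h libraries lay below the 1h libraries and above the GCSF 0h libraries. The neutrophil attractant *Cxcl2* (-0.80) and the cytokine *Osm* (-0.67) were called lower as well. *Il1b* had 11.3, 20.8 and 11.5 counts at 1h and 6.08, 2.36 and 2.43 at 2h, and *Il10* had 2.06, 2.08 and 5.75 at 1h and 0 in each 2h library, so that both rest on few reads and no fold is given. The *Il1b* call was lost without replicate 2 at 1h (adjusted p = 0.127) or replicate 2 (0.0939) or 3 (0.103) at 2h, or with a pseudocount of 0.5 (0.0726). Neither gene passed a mean of at least 10, and DESeq2 gave *Il10* no adjusted p. *Lif*, a cytokine of the IL6 family, was called higher with 15.5, 15.6 and 15.6 counts at 1h and 27.3, 37.8 and 37.3 at 2h (log2 fold change 1.07, standard error 0.38, adjusted p = 0.0248), a call that was lost when any of 5 of the 6 libraries was left out (adjusted p up to 0.0853, with the fold change near 1 throughout). Of 19 NF-kB factors and inhibitors, *Nfkbia* (-0.73) and *Nfkbiz* (-0.77), which encode the inhibitor IkBα and the nuclear IkBζ, known mainly as a coactivator of NF-kB targets, were called lower and *Bcl3* (0.69) higher, while the median of the list was -0.03. *Nfkbia* went from 3613, 3810.1 and 3940.4 to 2331, 2317 and 2178 counts.

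Some clock genes and a few genes known from low oxygen fell too. Of 17 circadian clock genes, 4 were called lower and 1 higher, with a median of -0.06. *Per1* (ENSMUSG00000020893, chromosome 11 from 69095108 to 69109965), a repressor of the clock that is also induced by cAMP and glucocorticoids, fell from 1223, 1414 and 1415 normalized counts to 291, 378 and 249 (log2 fold change -2.16, standard error 0.16, adjusted p = 4.16e-22). *Per2*, its paralog, fell from 4003, 4108 and 4042 to 1359, 1509 and 1401 counts (log2 fold change -1.51, standard error 0.064, adjusted p = 1.06e-41), with replicates that differed little beside the change. *Bhlhe40* (-0.95) and *Cry2* (-0.66), further repressors of the clock, were called lower, and *Nr1d2* (0.64), which encodes REV-ERBβ, higher, though not without replicate 2 at 1h (0.53). Of 10 glucocorticoid and steroid responsive genes the 3 called lower were *Per1*, *Dusp1* and *Sgk1*. Of 21 glycolysis and hypoxia response genes, 2 were called lower. *Bnip3*, a receptor of mitophagy, had 2576, 2782 and 2713 counts at 1h and 905, 817 and 852 at 2h (log2 fold change -1.65, standard error 0.18, adjusted p = 1.16e-13), and the glucose transporter gene *Slc2a1* had 4505, 4787 and 4552 and 2670.4, 3008 and 2608 (log2 fold change -0.74). *Hilpda*, a lipid droplet protein induced by hypoxia that was in no list, had 1208, 1240.2 and 1188 and 412, 395 and 365 counts (log2 fold change -1.63, standard error 0.17, adjusted p = 2.49e-14). The median of the glycolysis list was -0.24.

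The remaining genes among the 15 lowest were *Bcar1*, the adaptor p130Cas (164.97, 146.7 and 139.7 normalized counts at 1h and 38.5, 53.5 and 28.4 at 2h, log2 fold change -1.92), the apolipoprotein L family gene *Apol8* (94.9, 100.9 and 133.1 and 14.2, 16.5 and 16.2, -2.72) and *Usp17ld*, a deubiquitinase gene (226.8, 231 and 228.4 and 68.9, 74.7 and 49.4, -1.84). *Usp17ld* has near-identical copies among which reads may be split, so its value is uncertain. *Myc*, which drives growth, was called lower (4781, 5051 and 5058 and 2821, 3083 and 2612, -0.81) and was the 1 called member of 10 tested genes of the Myc, Max and Mxd network. *Klf6* was called lower (-0.72) and *Klf16* higher (0.78) among 13 Kruppel-like factors.

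**Figure D2:**
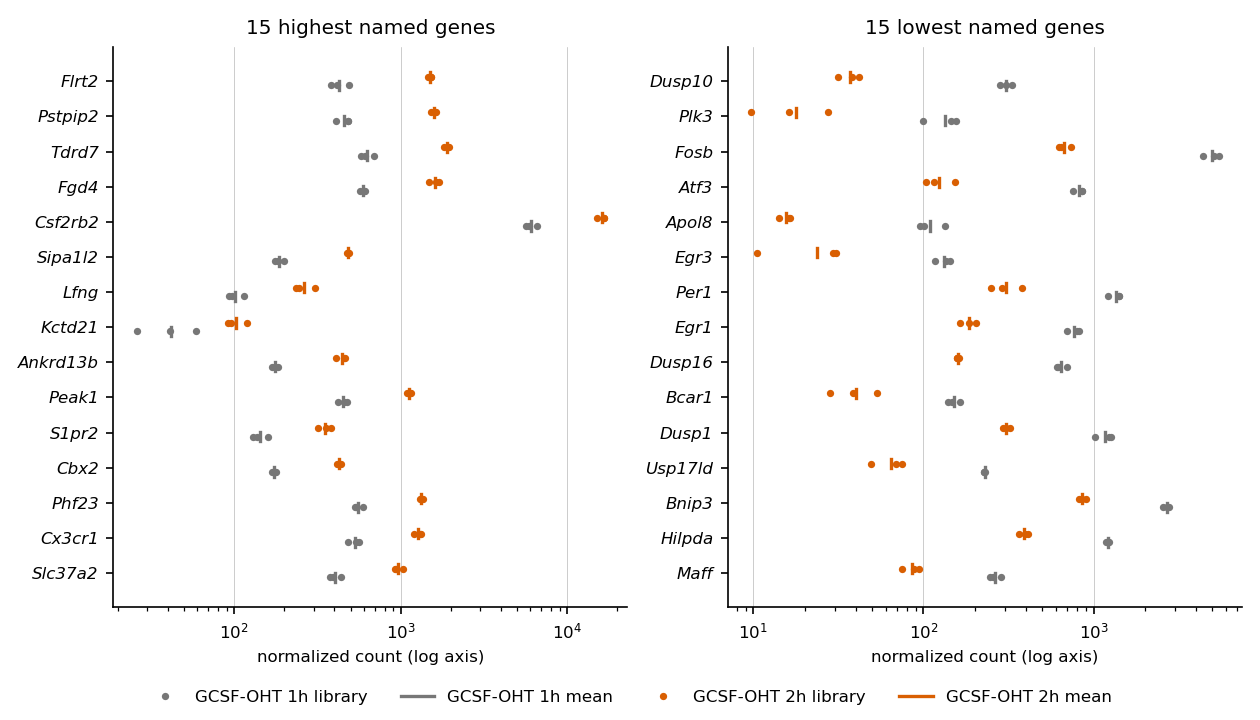
Normalized counts on log axes of the 15 genes with the highest and the 15 with the lowest fold change of 2h against 1h in GCSF, with 1 point for each library (grey for 1h, orange for 2h, n = 3 each) and a short bar at each mean. In every gene the 3 libraries of one time point stand apart from the 3 of the other, as the rule by which they were named requires.

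Receptor genes were among the rises. Of 17 myeloid cytokine receptor genes tested, 4 were called higher and 0 lower (median log2 fold change 0.21), beside 2.89% and 2.3% of all genes tested. *Csf2rb2* (ENSMUSG00000071714, chromosome 15 from 78282507 to 78305721), which encodes the beta chain that in mice serves the IL3 receptor alone, had 6599, 5930.5 and 5677 normalized counts at 1h and 15055, 16652 and 16589 at 2h (log2 fold change 1.41, standard error 0.051, adjusted p = 4.51e-48). *Csf2rb*, the common beta chain of the IL3, IL5 and GM-CSF receptors, had 25335, 24304 and 23027 and 40505, 42446 and 43403 counts (log2 fold change 0.80, standard error 0.043, adjusted p = 6.41e-33). In both genes all 2h libraries lay above all 1h libraries, and since the genes are close paralogs on the same chromosome, the split of reads between them is uncertain. *Ifngr2*, a chain of the interferon gamma receptor, rose from 305, 268 and 265 to 578, 568 and 610.2 counts (log2 fold change 1.07, standard error 0.066, adjusted p = 2.86e-28). *Il1rap*, the accessory chain of the IL1 receptor, rose from 1554, 1459.7 and 1480.5 to 2340.2, 2271 and 2399 (0.64). *Csf3r*, the receptor of GCSF itself, was not called, with a mean of 4749 ± 179.6 (SD, n = 3) in the 1h libraries and of 3944 ± 249.8 (SD, n = 3) an hour later. *Csf2rb* and *Csf2rb2* carried most of the rise of the summed counts (means from 24222 to 42118 and from 6069 to 16099), which for the list were 74764 to 78656 at 1h and 107489 to 112149 at 2h.

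Few members of other receptor lists were called, beside 2.89% higher and 2.3% lower among all genes tested. *Cx3cr1*, the receptor of fractalkine and a marker of monocytes, was the 1 called of 14 chemokine and formyl peptide receptor genes, with 565, 486 and 541 normalized counts at 1h and 1207, 1316 and 1308 at 2h (log2 fold change 1.27, standard error 0.071, adjusted p = 1.9e-31). *S1pr2*, a receptor of sphingosine-1-phosphate that was in no list, had 159.8, 129.02 and 137.2 and 358, 380 and 317 counts (log2 fold change 1.30, standard error 0.086, adjusted p = 2.03e-26). Of 14 Fc receptor and adaptor kinase genes, 3 were called higher and 0 lower. The Src-family kinase gene *Lyn* rose from 1548, 1494 and 1430.4 to 2731, 2564 and 2672 counts (log2 fold change 0.83, standard error 0.040, adjusted p = 5.69e-37), and the inhibitory receptor gene *Pirb* from 44.3, 58.3 and 43.5 to 96.2, 107 and 80.2 (0.94). The third, the adaptor gene *Tyrobp*, had 0 counts in each 1h library and 0, 0.787 and 2.43 at 2h, which is at or under the floor, so no fold is given. *Tirap* (0.81), an adaptor of Toll-like receptors, was called higher and *Tlr8* lower in a list of 18, and *Tlr8* held only 11.3, 7.28 and 5.75 counts at 1h and 4.05, 1.57 and 6.48 at 2h, and its call was lost with edgeR (adjusted p = 0.145), DESeq2 (0.113), and without replicate 1 at 1h (0.164) or replicate 2 at 2h (0.311). The *Tyrobp* call was lost with both tools as well. The integrin gene *Itgax* was called higher from 6.19, 7.28 and 4.11 to 13.2, 14.9 and 8.91 counts, 1 of 16 adhesion genes, a call that was lost with only the groups compared in the fit (adjusted p = 0.0822).

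Several of the largest rises were of genes outside the lists. *Flrt2* (ENSMUSG00000047414, chromosome 12 from 95692006 to 95785215), an adhesion protein of the cell surface, had 491, 382 and 412 normalized counts at 1h and 1514, 1453 and 1516 at 2h (log2 fold change 1.81, standard error 0.095, adjusted p = 4.95e-34). The 3h libraries held 683, 754 and 718, so that 2h was the highest of the first hours. *Peak1*, a pseudokinase of the cytoskeleton, went from 454, 475 and 422 to 1088, 1160.5 and 1136 (log2 fold change 1.32, standard error 0.10, adjusted p = 2.78e-21) and also had its highest mean of 0h to 4h at 2h. *Pstpip2*, an F-BAR protein whose loss in mice causes autoinflammation, went from 485, 482 and 408 to 1518, 1609 and 1626 counts (log2 fold change 1.79, standard error 0.059, adjusted p = 7.55e-52). *Tdrd7*, a Tudor domain protein of RNA granules, went from 689.8, 609.7 and 578 to 1936, 1832 and 1955 (log2 fold change 1.61, standard error 0.058, adjusted p = 3.44e-48). *Slc37a2*, a sugar-phosphate exchanger, went from 438, 390.2 and 379 to 942, 1035 and 925 (1.26). *Lfng*, which glycosylates Notch (101.3 counts on average at 1h and 262 at 2h, 1.36), *Ankrd13b* (175.4 and 442, 1.33) and *Sipa1l2*, related to regulators of Rap (187.03 and 482, 1.36), rose as well.

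For the rising genes, the windows of *Flrt2* and *Tdrd7* are shown as 2 of the 3 largest rises among genes with a mean of at least 100, and a short stretch of *Csf2rb2*, chosen after its values were seen, because it holds the PU.1 site, in capitals as its reverse complement. They are written in the same way, and the *Tdrd7* window is the first of 3 in the table.

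Flrt2 (chr12:95691976-95692225, plus strand): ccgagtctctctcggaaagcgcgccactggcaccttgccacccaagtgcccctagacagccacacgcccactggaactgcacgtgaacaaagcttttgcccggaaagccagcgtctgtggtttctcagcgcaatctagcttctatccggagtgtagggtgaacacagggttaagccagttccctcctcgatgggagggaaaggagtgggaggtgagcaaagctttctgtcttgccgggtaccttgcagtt

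Tdrd7 (chr4:45965085-45965334, plus strand): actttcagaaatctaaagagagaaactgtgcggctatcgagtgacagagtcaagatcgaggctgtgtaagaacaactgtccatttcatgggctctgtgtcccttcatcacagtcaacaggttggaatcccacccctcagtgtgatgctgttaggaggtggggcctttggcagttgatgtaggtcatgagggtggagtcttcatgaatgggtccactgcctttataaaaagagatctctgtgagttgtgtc

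Csf2rb2 (chr15:78305676-78305705, minus strand): gggcactggcaACTTCCTCaatctgctctc

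The *Csf2rb2* site starts 27 bases after the annotated start. None of the motifs searched was found in the windows of *Flrt2* and *Tdrd7*, and *Csf2rb2* was the 1 gene of the 26 with a PU.1 site.

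Another set of rises followed lower values at 1h than at 0h. *Cbx2*, a Polycomb subunit, had 359, 355 and 350.4 normalized counts at 0h, then 169.1, 177.9 and 175.8 and, in the 2h libraries, 417, 423 and 438 (log2 fold change 1.28, standard error 0.10, adjusted p = 1.98e-20 for 2h against 1h). *Phf23*, a PHD finger protein, had 1087, 1134 and 1137, then 591, 536 and 532 and then 1305, 1369 and 1325 (log2 fold change 1.27, standard error 0.056, adjusted p = 2.68e-40). *Kctd21*, an adaptor of cullin ubiquitin ligases, had 101.7, 111.6 and 121.2, then 58.8, 26.01 and 41.1 and then 92.2, 118.8 and 95.6 (log2 fold change 1.33, standard error 0.14, adjusted p = 2.81e-14). *Fgd4*, an activator of Cdc42, went from 995, 1181 and 1044 to 570.2, 614 and 598 and then to 1623, 1479 and 1706 (1.43). The first-hour differences of these 4 genes (from a comparison that shares the 1h libraries, so the values are set side by side only) were -1.02, -1.02, -1.46 and -0.85. Among list members, the cell-cycle phosphatase gene *Cdc25a* (1947, 1245 and 2209.8 counts on average at 0h, 1h and 2h, 0.83), the cyclin gene *Ccne2* (695, 473 and 777, 0.71), *Cebpg* (1479.8, 983 and 1478, 0.59) and the interferon signalling gene *Stat2* (1221, 734 and 1098, 0.58) had such a course. The calls of *Cebpg* and *Stat2* lie at the threshold and were lost without replicate 1 (0.57) or 2 (0.56) at 1h or replicate 1 (0.56) or 3 (0.55) at 2h for *Cebpg*, and without replicate 2 at 1h (0.53) or replicate 2 (0.57) or 3 (0.56) at 2h for *Stat2*. Upper-quartile scaling also ended both calls (0.56 and 0.56). *Cdc25a* and *Ccne2* were the 2 called of 18 G1 cyclins and CDK inhibitors, *Cebpg* the 1 called of 7 C/EBP genes and *Stat2* the 1 called of 22 interferon-stimulated genes.

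Several falling genes had the inverse course. Between 0h and 1h *Fosb* differed by 6.99 on the log2 scale, *Atf3* by 3.90, *Dusp10* by 3.18 and *Per1* by 2.38, and from 2h to 3h they differed by -2.07, -0.04, -0.18 and -0.49. These neighbouring comparisons share libraries with that of 2h with 1h. The receptor genes *Csf2rb2* and *Cx3cr1* differed in the same direction in each of the first 3 hours, by 1.10, 1.41 and 0.66 and by 1.72, 1.27 and 0.62. The largest of the 3 values was that of the second hour in *Csf2rb2* and that of the first in *Cx3cr1*.

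**Figure D3:**
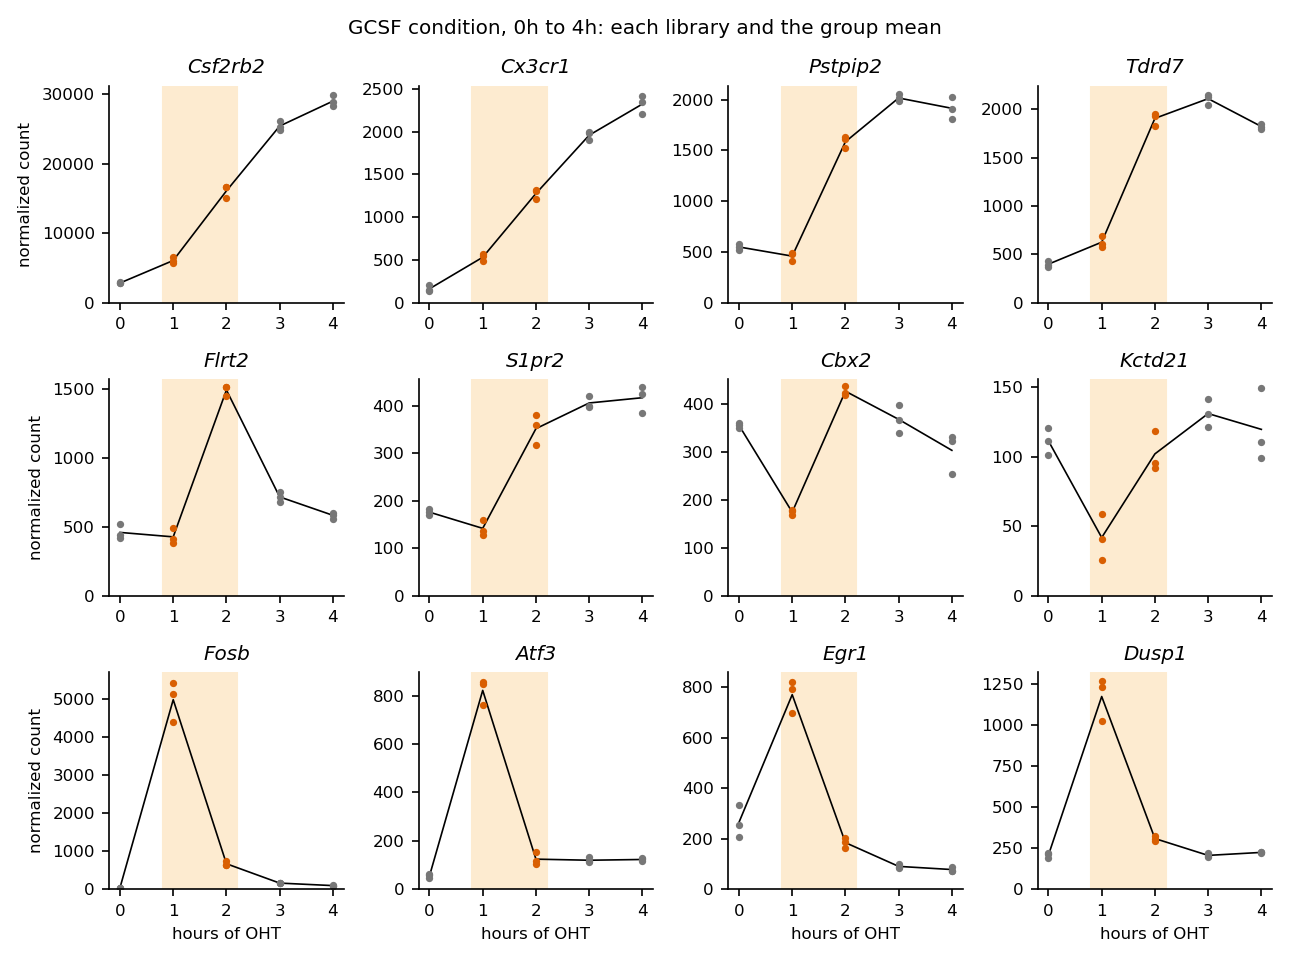
Normalized counts (linear axes from 0) of 12 genes in the GCSF condition at 0h to 4h of OHT, with 1 point for each library (n = 3 at each time), a line through the means, and the libraries of the 1h and 2h comparison in orange on a shaded ground. *Fosb*, *Atf3*, *Egr1* and *Dusp1* were highest at 1h, *Flrt2* at 2h, *Cbx2* and *Kctd21* dipped at 1h, and *Csf2rb2* and *Cx3cr1* climbed throughout.

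The same genes were looked up in GCSF-OHT 4h against GCSF 0h, whose libraries are not those of 1h and 2h. This comparison gives where a gene stood at 4h relative to its level before OHT, not whether its change from 1h to 2h lasted: *Dusp10* was at 37.4, 35.04 and 32.5 counts at 4h, in the range of both 2h and 0h, and was not called. In this comparison 3.21% of genes tested were called higher and 2.41% lower. Of the 503 genes that rose from 1h to 2h, 26.4% (and 23.8% of those higher at 4h) were higher at 4h than at 0h. Another 4 were lower at 4h than at 0h, among them *Cish* (-0.78). Of the 400 that fell, 75 (18.8% and 17.9%) were lower at 4h than at 0h, and 21 (5.25%) were higher. Among the 15 highest rises, 8 were called higher at 4h than at 0h, with *Cx3cr1* at 3.85 and *Csf2rb2* at 3.36 on the log2 scale, and 7 were not called, among them *Flrt2* (0.35), *Peak1* (-0.07) and *Cbx2* (-0.24). Among the 15 lowest, 10 were not called at 4h, *Egr1* (-1.74), *Usp17ld* (-1.38) and *Bnip3* (-1.22) were lower than at 0h, and *Fosb* (1.24) and *Atf3* (1.16) were higher. Of the 13 AP-1 and ATF genes, 4 were called higher at 4h than at 0h (*Fos* and *Jun* the others, 1.09 and 1.28) and 1 lower (*Fosl1*, -0.67). Of the 17 ERK feedback inhibitors 1 was higher at 4h than at 0h (*Dusp5*, 1.72) and 4 were lower, among them *Dusp6* (-0.94) and *Dusp4* (-1.15). *Ccl3* (1.56), *Ccl4* (1.65) and *Osm* (1.28) fell between 1h and 2h and were higher at 4h than at 0h.

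The same hour in IL3 conditions was compared next. From IL3-OHT 1h to 2h 6.33% of genes tested were called higher and 8.83% lower. Replicate 3 of IL3-OHT 2h stood apart from the other 2 (chi-square per gene 14.7 and 17.9, against 4.50 between those). Of the 503 genes that rose in GCSF, 267 (53.1%) also rose in IL3 and 10 fell, and of the 400 that fell in GCSF, 241 (60.2%) also fell in IL3 and 4 rose. The 15 genes with the lowest fold changes in GCSF were all called lower in IL3, and of the 15 highest all but *Kctd21* (0.14) were called higher. *Rap1gap2*, a regulator of Rap1, went in opposite directions: in GCSF it went from 557, 614 and 574 counts to 243, 266 and 295, and in IL3 from 287, 306 and 383 to 519.9, 609.5 and 587. *Sesn2*, a sestrin of the amino acid stress response, did so the other way, with log2 fold changes of 0.64 in GCSF and -0.97 in IL3.

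The difference between the conditions was tested as the 1h to 2h change in GCSF minus that in IL3. It was called above 0 for 760 genes (4.36%) and below 0 for 353 (2.03%), and for 734 and 363 without replicate 3 of IL3-OHT 2h. Of 25 other immediate-early genes, 11 were called above 0 and 0 below: in IL3, 16 of the 25 were called lower, and for the 11 the change in GCSF lay above that in IL3. *Csrnp1* changed by -0.86 in GCSF and -2.52 in IL3 (difference 1.66, adjusted p = 6.5e-16), *Zfp36* by -0.78 and -2.06 (1.28), and *Srf* by -0.84 and -1.74 (0.90). Of the 13 AP-1 and ATF genes tested, 3 were called above 0 and 2 below. Of 6 EGR factors and NAB corepressors, 3 were called above 0 and 0 below. *Egr1* fell by 2.06 in GCSF and by 3.19 in IL3 on the log2 scale (difference 1.13, standard error 0.25, adjusted p = 0.000246). Of the ERK feedback inhibitors 0 were called above 0 and 2 below: *Dusp10* changed by -3.02 in GCSF and -1.66 in IL3 (difference -1.36, adjusted p = 0.000784), and *Dusp6* by -1.40 and -0.79 (-0.62). *Tdrd7* rose further in GCSF than in IL3 (1.61 and 0.62, difference 0.99), and *Cx3cr1* rose less (1.27 and 2.01, difference -0.74). *Cish* and *Socs2*, feedback targets of STAT5, were called higher in GCSF (0.62 and 0.63) and changed by -0.27 and -0.02 in IL3, and the differences (0.88 and 0.64) were called. Without replicate 3 at 1h the GCSF values fall under the threshold for *Cish* (0.56) and *Socs2* (0.58), and without replicate 2 at 2h for *Cish* (0.58).

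**Figure D4:**
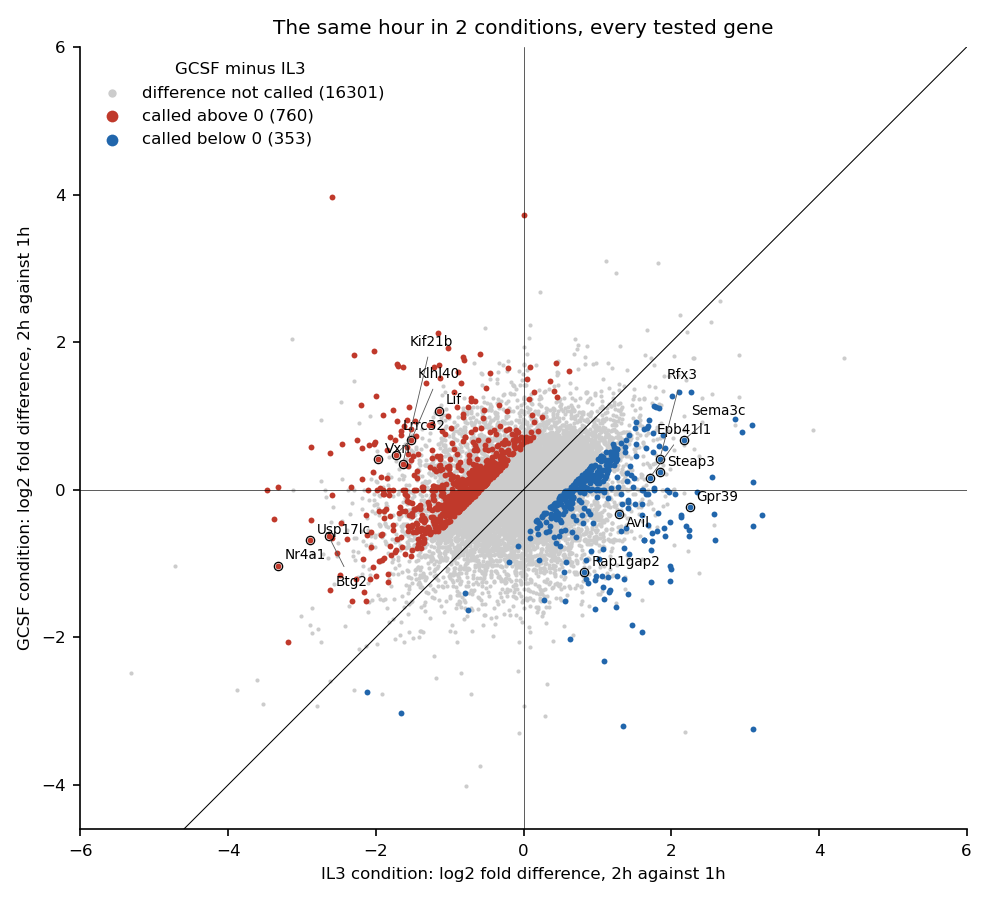
Log2 fold difference of 2h against 1h in IL3 (horizontal) and in GCSF (vertical) for 17414 genes, with equal change on the diagonal line. Genes whose difference between the conditions was called are red (760, above the line) or blue (353, below it), and the 15 ringed and labelled genes are among the largest called differences by the naming rule.

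All lists together held 608 genes, of which 548 were tested, 27 were called higher and 55 lower, beside 2.89% and 2.3% of all genes tested. The lists were chosen with earlier results known. Of 18 PU.1 and other ETS factor genes 0 were called (median log2 fold change 0.11), and of the 24 ribosome biogenesis genes 0 were called although their median (0.23) lay further from 0 than that of all genes. For neutrophil products the counts were near the 5.19% called among all genes tested: of 10 primary granule genes tested 1 was called (*Ctsc*, which encodes the protease that activates them, 31.96, 28.1 and 28.8 and 53.7, 55.9 and 50.2 counts, 0.83), of 12 secondary and tertiary granule genes 1 (*Mmp9*, 8.25, 5.202 and 12.3 and 16.2, 9.44 and 17.8 counts), and of 7 NADPH oxidase genes 0. The *Mmp9* call was lost with edgeR (adjusted p = 0.392) and DESeq2 (0.13), and without replicate 2 at 1h (0.144) or replicate 3 at 2h (0.0603). The median log2 fold changes of both granule lists lay below 0 (-0.12 for primary, -0.15 for secondary and tertiary). Primary granule genes summed to 291971 to 295150 counts at 1h and 252882 to 273891 at 2h. Secondary and tertiary granule genes summed to 200555 to 202029 at 1h and 180028.5 to 189369 at 2h. Of 13 progenitor transcription factors tested, 2 were called higher and 0 lower, *Ikzf1* (3469.6, 3172 and 3176 and 5461, 5538 and 5428 counts, 0.74), which encodes Ikaros, and *Ikzf2* (0.81). Of 16 macrophage and neutrophil fate regulators tested, 1 was called higher, *Zeb2* (0.64), and 1 lower, *Bhlhe40* (-0.95). *Sesn2* and *Cebpg* were the called members of 19 genes of the ATF4 response, *Sesn2* not without replicate 3 at 1h (0.56). *Socs1* (-0.81) and *Pim3* (-0.66) were called lower beside the rising *Cish* and *Socs2* in the JAK-STAT list of 14, *Socs1* not without replicate 1 at 2h (-0.48) or with only the groups compared in the fit (adjusted p = 0.217).

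None of the tested markers of erythroid, megakaryocyte, mast cell and basophil, eosinophil, lymphoid or stromal cells was called. In bulk RNA, fewer cells of a type and less RNA per cell cannot be told apart. Eosinophil markers summed to at most 2.400 counts in any of the 6 libraries, lymphoid markers to 131.1 to 154.7 at 1h and 93.6 to 123.2 at 2h, erythroid markers to at most 55.9, mast cell and basophil markers to 489.8 to 525 at 1h and 489 to 544 at 2h, stromal markers to 8.200 to 8.300 at 1h and 5.100 to 11.3 at 2h and megakaryocyte markers to 1276 to 1370.3 at 1h and 1218 to 1239.9 at 2h. The mitochondrially encoded genes summed to 425076 to 497496 at 1h and 419649 to 424862 at 2h, with *mt-Atp8* called lower. The 19 replication-dependent histone genes, whose mRNAs mostly lack a poly(A) tail, summed to 7338 to 7749 at 1h and 5778 to 6148 at 2h, with *H1f3*, *H1f4* and *H2ac7* called lower. *Hspa1a* was the 1 called of 13 heat shock genes (106.2, 107.2 and 101.9 and 88.1, 51.9 and 59.97 counts), and it has a near-identical copy. Its call was lost without replicate 2 (adjusted p = 0.117) or 3 (0.0625) at 2h. The calls of *mt-Atp8* and *H2ac7* were lost in 4 and 5 of the 6 fits with 1 library left out (adjusted p up to 0.261 and 0.146), that of *H1f3* without replicate 3 at 2h (0.094) and that of *H1f4* without replicate 2 at 2h (0.0892). Whether these shifts have a part in the differences described above was not tested.

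**Figure D5:**
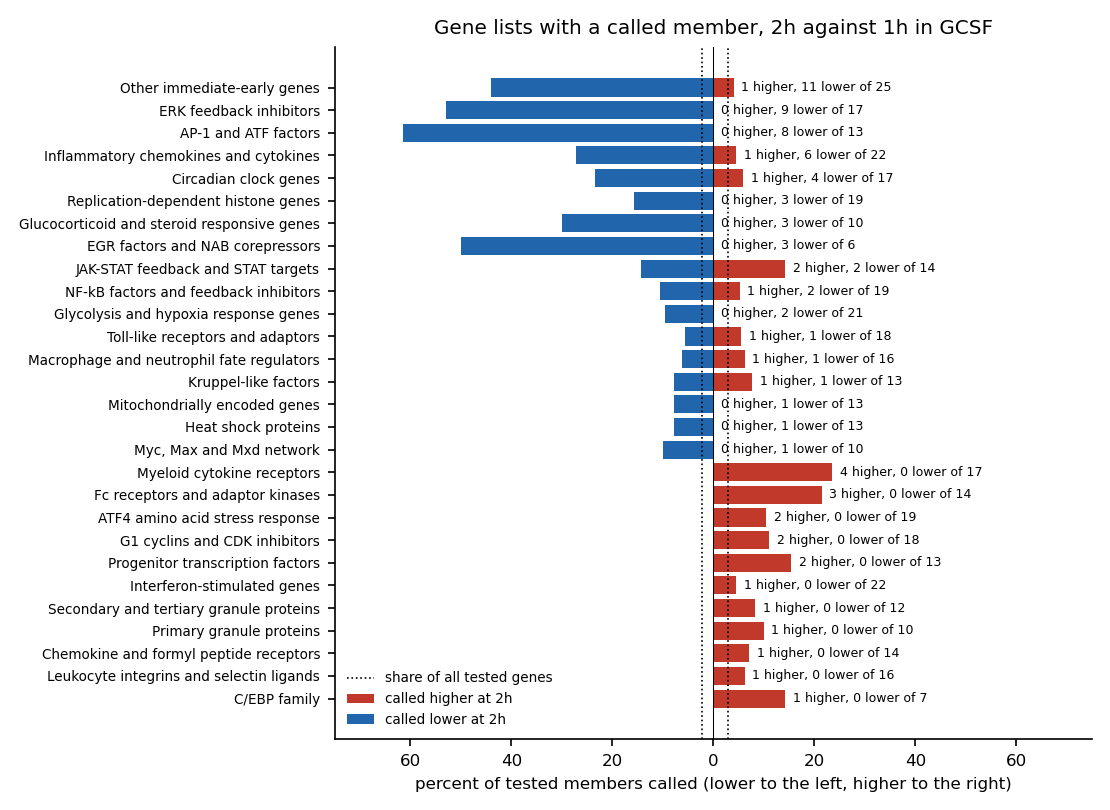
Percent of the tested members of each gene list that were called lower (bars to the left) and higher (bars to the right) at 2h against 1h in GCSF, for the lists with a called member, with the counts printed and dotted lines at the share of all tested genes (2.89% higher, 2.3% lower). Immediate-early, AP-1, EGR and ERK feedback genes extend to the left, and the lists of cytokine receptors and of Fc receptors and adaptor kinases, in which *Lyn*, *Pirb* and *Tyrobp* were called and no Fc receptor, to the right.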

How the data were processed

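PolyA RNA (per the labels) of PUER cells was sequenced, and the authors quantified reads with Salmon against GRCm38, according to the submitters' processing notes and the study's methods. The step from transcripts to genes and the versions are not given in the sources used here. The deposited values are a normalized signal, reads divided by DESeq2 size factors, in 1 table of 36255 genes, and 100% of values came back as whole reads (tolerance 1e-06). Genes with at least 5 normalized counts in 1 library or more were tested (17414) with limma 3.58.1 (R 4.3.3, mean-variance trend) on log2(normalized count + 1), in 1 fit over 159 libraries, leaving out 6 of IL3-OHT 96h and 144h. The study's own test was DESeq2. Count tests on the recovered reads (edgeR 4.0.16, DESeq2 1.42.0), other pseudocounts, filters and scalings, the groups compared alone, a replicate block and each library left out were alternatives. Scripts were tested on simulated data. Genes were named as the 15 highest and 15 lowest fold changes among called genes with a mean of at least 100, no overlap between groups and a symbol that is no Gm number, Rik clone or accession, together with the called members of the lists, *Spi1*, and the 8 highest and 8 lowest differences between GCSF and IL3 under the same conditions, of which 1 is not reported here. The comparison and the lists were chosen with earlier results of these data known. The 6 libraries compared held 19839205 to 25816977 reads, and replicates correlated at 0.9868 or more (Pearson's r across genes, which are not independent). Coordinates are from the RefSeq gene annotation (GRCm38).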

Additional observations from a re-analysis of the deposited data

Results flagged for a closer look

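The change from 1h to 2h differed between GCSF and IL3 in the 24 genes listed here, taken from the 30 with the largest changes in GCSF and from the largest differences, by the limma test of the difference itself (interaction term, Benjamini-Hochberg over all genes tested). Further list members with a called difference are given above. All values are log2 differences of 2h against 1h, from 3 libraries in each group, and the differences are GCSF minus IL3. Of the 30 genes with the largest changes in GCSF, 9 were among them. In the rises these were *Tdrd7* (1.61 in GCSF, 0.62 in IL3, difference 0.99), *Kctd21* (1.33 in GCSF, 0.14 in IL3, difference 1.19), *Ankrd13b* (1.33 in GCSF, 2.27 in IL3, difference -0.94), *Peak1* (1.32 in GCSF, 2.10 in IL3, difference -0.78) and *Cx3cr1* (1.27 in GCSF, 2.01 in IL3, difference -0.74). In the falls they were *Dusp10* (-3.02 in GCSF, -1.66 in IL3, difference -1.36), *Atf3* (-2.74 in GCSF, -2.12 in IL3, difference -0.62), *Egr1* (-2.06 in GCSF, -3.19 in IL3, difference 1.13) and *Hilpda* (-1.63 in GCSF, -0.75 in IL3, difference -0.88).

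The genes with the highest differences were *Vxn* (0.42 in GCSF, -1.97 in IL3, difference 2.39), *Nr4a1* (-1.03 in GCSF, -3.32 in IL3, difference 2.29), *Lif* (1.07 in GCSF, -1.15 in IL3, difference 2.22), *Usp17lc* (-0.68 in GCSF, -2.89 in IL3, difference 2.21), *Lrrc32* (0.48 in GCSF, -1.73 in IL3, difference 2.21), *Klhl40* (0.67 in GCSF, -1.52 in IL3, difference 2.19), *Btg2* (-0.63 in GCSF, -2.64 in IL3, difference 2.01) and *Kif21b* (0.35 in GCSF, -1.64 in IL3, difference 1.99). *Klhl40* held 1.03, 1.04 and 3.29 counts at 1h and 7.09, 2.36 and 1.62 at 2h in GCSF, and *Usp17lc* 9.28, 8.32 and 4.11 and 4.05, 1.57 and 8.103, so that their GCSF values rest on few reads, and *Usp17lc* has near-identical copies. Both passed the mean of at least 100 only through IL3-OHT 1h. *Nr4a1* (32.0 counts on average at 1h and 14.8 at 2h in GCSF) and *Lif* (15.6 and 34.1) also passed it only through IL3 libraries. With 1 library left out, the GCSF value of *Klhl40* ran from 0.19 to 1.03 and that of *Usp17lc* from -1.13 to -0.22. The GCSF values and differences printed for these genes are therefore not exact sizes. The GCSF values of several others, none of them called, also rest on single libraries: without replicate 3 at 2h that of *Vxn* was 0.19 and without replicate 1 at 2h 0.69, and that of *Lrrc32* was 0.32 without replicate 3 at 1h and 0.63, and called, without replicate 2 at 1h. Among the genes with the lowest differences were *Gpr39* (-0.23 in GCSF, 2.25 in IL3, difference -2.48), *Rap1gap2* (-1.12 in GCSF, 0.82 in IL3, difference -1.94), *Avil* (-0.33 in GCSF, 1.29 in IL3, difference -1.63), *Steap3* (0.24 in GCSF, 1.84 in IL3, difference -1.61), *Epb41l1* (0.16 in GCSF, 1.71 in IL3, difference -1.55), *Sema3c* (0.68 in GCSF, 2.17 in IL3, difference -1.50) and *Rfx3* (0.41 in GCSF, 1.84 in IL3, difference -1.43). Without replicate 2 at 2h the GCSF value of *Epb41l1* turned to -0.10 and that of *Avil* was -0.05, without replicate 1 at 2h they were 0.55 and -0.51, and without replicate 2 at 1h that of *Rfx3* was 0.19. Cytokine, pre-treatment and OHT dose differ together between the conditions and cannot be told apart.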

How the results depend on the processing

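The 8 counts of genes called or shared between comparisons stayed within 1.5 times their values under every alternative run. For 2h against 1h in GCSF, 514 genes were called higher and 402 lower with a pseudocount of 0.5, 547 and 416 with no filter on low values, 497 and 375 with edgeR, 485 and 382 with DESeq2, and 450 and 449 with upper-quartile scaling, which moved the higher share of calls from 55.7% to 50.1%. Leaving out 1 library at a time gave 450 to 519 higher and 314 to 468 lower in GCSF, 1032 to 1139 and 1407 to 1608 in IL3, and 710 to 825 above and 321 to 399 below 0 for the difference. The 30 genes with the largest changes, chosen for size, kept their calls in all 16 settings, as did 61 of the 82 called list members. The other 21 lost theirs in 1 or more. *Nr4a1* was also not called with only the groups compared in the fit (adjusted p = 0.112). Replicate numbers do not pair these libraries (correlations of same-numbered deviations of -0.03, 0.09 and 0.06), and a fit with the replicate number as a block called 507 and 405, keeping 901 of the 903 calls. Every other setting kept fewer of the 903. DESeq2 kept 774, the fit of only the groups compared 705, and the fit without replicate 3 at 2h 695, the lowest. With 3 libraries a group and a floor of 3 reads, values of a few counts, as for *Il10* and *Tyrobp*, do not allow a fold.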

Other observations

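Zinc finger genes, a family that was looked at only after the values were seen, included many of the smaller rises. Of 365 tested genes whose symbol is Zfp and a number, most of them encoding C2H2 zinc finger proteins that bind DNA, 47 were called higher at 2h than at 1h in GCSF (12.88%, beside 2.89% of all genes tested) and 6 lower, with a median log2 fold change of 0.19. From 1h to 2h in IL3, 97 were called higher (26.6%, beside 6.33% of all genes) and 25 lower (6.85%, beside 8.83%). At GCSF 4h against 0h, 10 were higher (2.74%, beside 3.21%) and 4 lower (1.1%, beside 2.41%), which is no more than among all genes. Of 20 numbered Dusp genes, also counted after the values were seen, 8 were called lower (40%, beside 2.3% of all genes) and 0 higher in GCSF, and 8 lower (40%, beside 8.83%) and 1 higher in IL3. The family was picked because members of it were among the steepest falls.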
